A study of Mus musculus with 24 samples.

Results

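Gene expression was compared between KP mouse lung tumours labelled late relapse and KP tumours labelled 1st relapse, in 3 libraries of each. The labels refer to relapse after immune checkpoint blockade (ICB). The 6 libraries were taken by their labels (Late relapse KP and 1st relapse KP) from 24 in the series, of which 15 were KP. KP is an engineered mouse lung cancer model whose alleles include floxed p53 on both chromosomes, and every KP group shares the same alleles. Tumour cells were injected into mice, tumours were taken on day 15, and live CD45-negative cells were sorted, so most leukocytes were gated out while fibroblasts and endothelial cells could remain. The series' design text describes the relapsed groups as ICB-relapsed, and the sample labels give no treatment for the tumours that were sequenced. The checkpoint agent, the interval between the 1st and the late relapse, and whether each relapse is 1 line or several are not given in the sources used here. The libraries are called biological replicates, with nothing said of separate animals, so the p-values measure the spread between these samples. Parental, chronic interferon gamma (IFNG) and 2nd relapse KP tumours, also 3 libraries each, entered the fit, and their levels are given beside some genes.

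Checkpoint antibodies release T cells, which secrete IFNG. The cytokine binds the receptor chains Ifngr1 and Ifngr2, the kinases Jak1 and Jak2 pass the signal on, and transcription factors such as Irf1 switch on genes for peptide processing, peptide transport and class I presentation, by which T cells recognise a tumour. Tumours that return after ICB can differ in this pathway, in epithelial identity, in their matrix and in their metabolism, and the comparison asks how a late relapse differs from the 1st.

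The deposited values are variance-stabilised log2 values, and differences (late minus 1st relapse) are on that scale with a standard error, which compresses low counts. Levels and folds are normalised counts calculated back from those values. Rose and fell below mean higher and lower in the late relapse group and do not describe a course in time. A gene was tested where at least 1 KP group averaged 1 log2 unit above the lowest value, about 144.2 normalised counts, and counted as called where its limma p, adjusted over all 11193 tested genes, was under 0.05. Of these, 5380 genes (48.1%) were called, 2754 (24.6%) higher and 2626 (23.5%) lower in late relapse, and the median difference over all tested genes was -0.0018. A difference of at least 1 log2 unit was held by 183 called genes (1.63%), 105 higher (0.938%) and 78 lower (0.697%). Without overlap between the 3 late and the 3 1st relapse libraries stood 6141 genes (54.9%). Where only the 1st relapse mean reached the level for testing, the filter itself set the direction as lower in late relapse. Where only the late mean did, it set the direction as higher. Such genes are among those called. Estimated depth was 20.7 to 32.8 M fragments in late relapse and 13.7 to 21.7 M in 1st relapse libraries, with 27963 to 30417 and 22671 to 29289 genes detected, and the part of depth in the results was not tested. Against that background, 22 of 37 tested glycolysis and hypoxia genes and 17 of 30 sterol and fatty acid genes were higher in late relapse. Lower in late relapse were 18 of 22 gastric and mucosal genes, 28 of 38 matrix genes, 12 of 19 class I antigen processing genes and 17 of 32 IFNG response genes. Each list below is read against 24.6% higher and 23.5% lower.

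The floxed gene was looked at first. Trp53, which encodes p53, had 133, 157 and 163 counts in the 1st relapse and 149.9, 147 and 137 in the late relapse libraries and was not called (difference -0.02). These are sums over the whole gene and do not show the deleted exons. The sort was checked with fixed marker lists. Ptprc, which encodes CD45, stood at 26.9 to 90.9 counts in 1st relapse and 29.2 to 49.6 in late relapse libraries, and no T cell, B cell or neutrophil marker reached the level for testing.

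Among genes averaging at least 3 log2 units above the lowest value in 1 of the groups, the highest differences in late relapse were those of Crisp1, Pdyn and Il5ra. Lack of overlap between the 2 groups was part of that choice, here and for the lowest differences below. Crisp1, a cysteine-rich secretory protein best known from the epididymis (chr17:40293758-40319207, GRCm38), had 90.04, 69.0 and 98.2 normalised counts in the 1st relapse libraries and 2290.0, 4319 and 4174 in the late ones. All 3 late libraries were far above all 3 1st relapse ones, a 41.9-fold rise (log2 difference 3.03 ± 0.15, limma adjusted p = 4.6e-09), from a parental mean of 47.6. Pdyn, the precursor of the dynorphin opioid peptides, went from 195, 61.5 and 117 to 3714, 2413 and 2631 counts, 23.5-fold (limma adjusted p = 2.0e-09). Il5ra, the interleukin 5 receptor alpha chain, had 517, 576 and 446 counts at 1st relapse and 8728, 4889 and 4040.4 late, an 11.5-fold rise (limma adjusted p = 8.1e-07), with late replicate 1 the highest library. Apoc2, the cofactor of lipoprotein lipase, rose 11.4-fold from 312, 89.9 and 196 to 2720.0, 1893 and 2203 counts, against a parental mean of 1.17. Cdhr2, a protocadherin of the brush border, rose 11.2-fold, and its parental mean was 4.34 counts. The 2nd relapse means were 600 (Crisp1), 314 (Pdyn), 10393 (Il5ra), 2349 (Apoc2) and 2750 (Cdhr2).

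**Figure D1:**
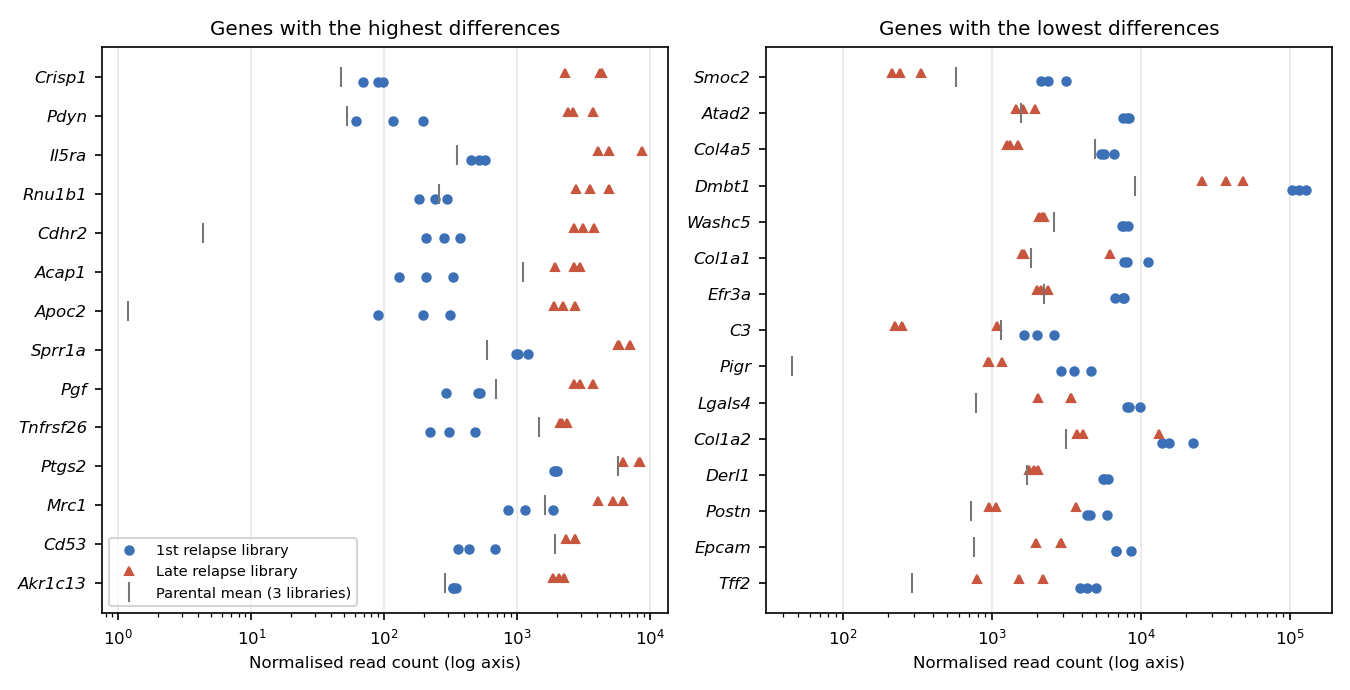
Normalised read counts (log axis) of 14 of the 15 genes with the highest and of the 15 with the lowest log2 differences. They were chosen among called genes with a proper symbol and a mean at least 3 log2 units above the lowest value in 1 of the groups. Genes such as Col4a6 (-2.38) and Peg10 (-1.36), below that level, are not shown. Circles are the 3 1st relapse libraries, triangles the 3 late relapse libraries and bars the parental mean. Late and 1st relapse libraries do not overlap in any row, which the choice of genes required, and late relapse levels of Atad2, Washc5, Efr3a and Derl1 lie near the parental bar.

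Other members of the 15 highest were Sprr1a, an envelope protein of stressed epithelium (5.81-fold), the angiogenic ligand Pgf (7.09-fold), the death receptor relative Tnfrsf26 (6.63-fold), the aldo-keto reductase Akr1c13 (6.12-fold) and the small GTPase regulator Acap1 (11.3-fold). Parental means of Pgf (694), Tnfrsf26 (1466) and Acap1 (1097) lay above their 1st relapse means (442, 335 and 222). Those of Sprr1a (595) and Akr1c13 (286) lay below (1067 and 336). Rnu1b1, a U1 spliceosomal RNA gene, rose 15.6-fold, but it has near-identical copies and its count is uncertain. Cd53 and Mrc1, usually read as leukocyte and macrophage genes, rose 5.25-fold (681, 357 and 438 to 2719.9, 2708 and 2322) and 4.04-fold (1853, 852 and 1151 to 6259.5, 4043 and 5291). Their parental means were 1940 and 1630 counts, above the 1st relapse means of 492 and 1285. The 2nd relapse means were 560 for Cd53 and 6879 for Mrc1. Cd53 and Mrc1 led their marker lists. The summed leukocyte list went from 27.7 to 46.8 CPM (counts scaled to the library total) at 1st relapse to 106.5 to 136.8 late, and the macrophage list from 66.98 to 111.2 to 187.1 to 308 CPM, while Ptprc was as given above. Parental libraries held 88.2 to 128.5 CPM of the leukocyte list, overlapping the late range, and 76.6 to 106.3 CPM of the macrophage list. Late libraries were all above 1st relapse ones for 1 of the 11 leukocyte markers, Cd53, and the other 10 overlapped. Of the 13 macrophage markers 5 were above in each late library (Mrc1, Cd68 and Csf1r among them) and 8 overlapped, such as Adgre1 and C1qa. These counts, and the endothelial one below, stand beside 54.9% of all tested genes without overlap in either direction. Most of these markers lay below the level for testing. Without Mrc1 the summed macrophage counts overlapped, at 487.2 to 604.3 at 1st relapse and 459.8 to 815.6 late. The summed endothelial list was 176.3 to 198.8 CPM at 1st relapse and 243.6 to 264.2 late, nearly all of it from Flt1. Of its 14 markers 4 were above in each late library (Flt1, Cdh5, Tie1 and Esam) and 10 overlapped, Pecam1, Kdr and Vwf among them, and without Flt1 the summed counts overlapped, at 141 to 237.3 and 209.4 to 303.7. The part of such cells in the results was not tested. The fixed lists of 11 leukocyte and 13 macrophage markers each held 2 tested genes, and the partners of Cd53 and Mrc1, Lcp1 (0.01) and Lyz2 (-0.07), were not called.

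At the other end, Smoc2, a matricellular protein, fell 9.71-fold, from 2135, 3131 and 2371 to 240.3, 214 and 332 counts (log2 difference -2.09 ± 0.10, limma adjusted p = 2.2e-09). Dmbt1, a mucosal scavenger-receptor protein, fell from 114426, 102527 and 127899 to 25612, 36858 and 48074 and stayed above its parental mean of 9045 in every late library. Of the 15 lowest, 4 lie on chromosome 15 (Atad2, Washc5, Efr3a and Derl1), 3 are fibroblast genes (Col1a1, Col1a2 and Postn), and Pigr, Lgals4, Tff2 and Epcam are epithelial. The remaining ones are Smoc2, Dmbt1, the complement protein C3 and Col4a5.

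A pair of neighbouring collagen genes on the X chromosome fell together. Col4a5 and Col4a6 encode the alpha 5 and alpha 6 chains of type IV collagen, the network collagen of basement membranes, and are transcribed in opposite directions from starts 1343 bases apart. Col4a6 had 1225, 1436 and 1164 counts at 1st relapse and 10.5, 17.1 and 4.42 late, so that late relapse libraries held very few of its reads (log2 difference -2.38 ± 0.07, 119.5-fold lower, limma adjusted p = 4.5e-11). Parental tumours averaged 409 and 2nd relapse tumours 393 counts. Col4a5 went from 5389.8, 6553 and 5667 to 1263, 1498 and 1312 (limma adjusted p = 2.9e-10), with a parental mean of 4911 and a 2nd relapse mean of 889. The paired chains Col4a3 (-0.03) and Col4a4 (0.02) were not called, and the common chains Col4a1 (-0.60) and Col4a2 (-0.47) fell less. The 300-base windows around the starts of the pair, 250 bases before each start and 50 after it, are shown because they flank the stretch from which both genes are read (RefSeq, GRCm38.p6; Col4a5 at chrX:141475169-141475468 on the plus strand, Col4a6 at chrX:141474027-141474326 on the minus strand). No bases are marked in them.
Col4a5: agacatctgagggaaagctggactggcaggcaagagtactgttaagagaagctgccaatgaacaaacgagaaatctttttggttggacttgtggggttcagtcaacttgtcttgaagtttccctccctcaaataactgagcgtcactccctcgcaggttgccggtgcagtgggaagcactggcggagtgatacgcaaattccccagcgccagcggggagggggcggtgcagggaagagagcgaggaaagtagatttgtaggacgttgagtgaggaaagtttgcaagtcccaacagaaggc
Col4a6: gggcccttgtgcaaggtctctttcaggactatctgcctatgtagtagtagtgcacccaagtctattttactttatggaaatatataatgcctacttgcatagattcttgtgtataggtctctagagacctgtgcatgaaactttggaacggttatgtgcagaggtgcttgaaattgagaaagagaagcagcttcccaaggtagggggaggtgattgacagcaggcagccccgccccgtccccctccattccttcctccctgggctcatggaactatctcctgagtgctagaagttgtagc

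Many genes of a stretch on chromosome 15 were high at 1st relapse and closer to parental levels in late relapse. The stretch from Derl1 to Efr3a (57869502 to 65873816 on chromosome 15, GRCm38), which includes Myc, was looked at after its 4 named genes had been seen, and it holds 28 tested genes, of which 17 were called lower and 8 higher in late relapse. Atad2, a bromodomain ATPase, had 8322, 8020.2 and 7519 counts at 1st relapse and 1955, 1608 and 1456 late (log2 difference -1.95 ± 0.08, limma adjusted p = 7.5e-10), and its parental mean was 1571. Derl1, an endoplasmic reticulum degradation factor, had 5639, 6002 and 5555 against 1759, 1914 and 2022 with a parental mean of 1721. Washc5, a WASH complex subunit, had 7690.5, 8120.0 and 7481 against 2239.6, 2069 and 2162 with 2603 in parental tumours, and Efr3a, a membrane scaffold of a lipid kinase, had 7566, 7687 and 6655 against 2357, 1999.7 and 2147 with 2247. In these 4 genes no late library came near any 1st relapse library, and lack of overlap had been part of their choice. Their 2nd relapse means were 3125 (Atad2), 3126 (Derl1), 4163 (Washc5) and 4253 (Efr3a), between the parental and the 1st relapse means.

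The genes that fell were not contiguous. Between Fbxo32 and Mtss1 lie, among others, Fam91a1 (0.29), Tmem65 (0.15), Rnf139 (0.16), Tatdn1 (0.19) and Ndufb9 (0.22), all called higher in late relapse, and then follow Mtss1 (-1.02), Sqle (-1.16), Washc5 (-1.62), Nsmce2 (-1.15) and Trib1 (-1.13), all called lower. Myc itself was not called (difference -0.12, 1917 against 1729.9 counts), while the long non-coding Pvt1 next to it was lower at -1.20. The predicted gene Gm30563 had 338, 425 and 294 counts at 1st relapse, 0, 2.23 and 0 late and a mean of 1.86 in parental tumours. It reached the level for testing only in 1st relapse tumours, so the filter set its direction. Leaving Gm30563 aside, 1st relapse means were 2.32 to 10.1 times the parental ones in 15 of the other 16 genes called lower, with Fbxo32 at 1.04 times, and late relapse means were 0.635 to 2.41 times the parental ones in the 16. Counts of RNA do not show the number of gene copies.

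**Figure D2:**
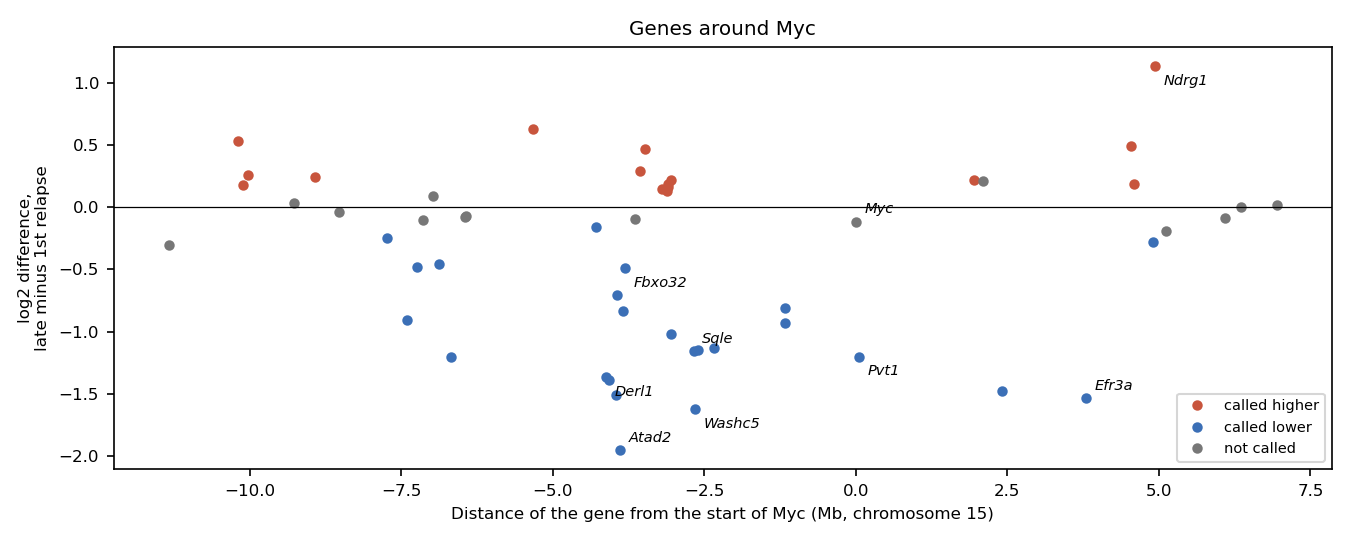
Log2 difference between late and 1st relapse (y axis) of tested chromosome 15 genes by distance from the start of Myc in Mb (x axis); colours give the call. Derl1, Atad2, Sqle, Washc5, Pvt1 and Efr3a lie at -1.16 or lower, with genes called higher between them, and Myc lies at -0.12.

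More IFNG response genes were lower than higher in late relapse, while the receptor and kinase tier was mixed. In the receptor and kinase tier, Ifngr1 had 2771, 2806 and 3230.0 counts at 1st relapse and 1804, 2223 and 2371 late (log2 difference -0.38 ± 0.08, limma adjusted p = 9.0e-04) and Ifngr2 had 1567, 1412 and 1539 against 889.5, 1118 and 1014 (-0.42 ± 0.10, limma adjusted p = 0.00236). Neither receptor chain overlapped between the groups. The late means of Ifngr1 (2133) and Ifngr2 (1007) were above the parental means (1771 and 726). The kinases went the other way by a little, Jak1 by 0.23 (limma adjusted p = 0.00847) and Jak2 by 0.27 (limma adjusted p = 6.1e-04). Irf1, a transcription factor of the response, had 1528, 1535 and 1426 counts against 916, 995 and 1012 (-0.44, limma adjusted p = 8.7e-05). For Irf1 the late mean (974) lay below the parental mean (1210). Irf9 was lower (-0.34) and lost its call without late replicate 1 (limma adjusted p = 0.0551) or without 1st relapse replicate 3 (0.0688). Over the whole machinery list 5 of 20 tested members were higher (25%, against 24.6% of all genes) and 7 lower (35%, against 23.5%), with a median of -0.13. Without late replicate 1, 4 were higher and 5 lower, and without 1st relapse replicate 3, 6 were higher and 5 lower.

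Among IFNG response genes 17 of 32 tested members were lower (53.1%, against 23.5% of all genes) and 2 were higher, with a median of -0.30. The count of lower genes was 12 without 1st relapse replicate 3 and 13 without late replicate 1. Iigp1, an immunity-related GTPase that attacks parasite vacuoles, had 385, 187 and 843 counts at 1st relapse and 23.2, 46.1 and 92.5 late. The 3 1st relapse libraries spread widely, yet the lowest was above the highest late one (-1.06 ± 0.29, limma adjusted p = 0.00814). Its relative Tgtp1 had 196, 93.2 and 250.02 against 2.16, 37.6 and 16.8, and the guanylate-binding protein Gbp2 had 338, 292 and 418 against 103, 124 and 115 (limma adjusted p = 0.00395). Tgtp1 reached the level for testing only in 1st relapse tumours, so the filter set its direction. Tgtp and Gbp genes have close copies in the genome, and how reads were divided among them is uncertain. Parp14 (-0.66), Dtx3l (-0.46), Parp9 (-0.31), the adhesion molecules Vcam1 (-0.46) and Icam1 (-0.38), Irgm2 (-0.43), Igtp (-0.34) and the feedback inhibitor Socs3 (-0.28) were also lower. The 2 that rose were Upp1, a uridine phosphorylase (929, 835 and 868 to 3765, 3164 and 3291, limma adjusted p = 5.9e-09), and Nampt of NAD synthesis (0.29). Ido1 was not called: 1 of the 3 1st relapse libraries was high, at 35.0, 18.3 and 501 against 18.7, 15.5 and 37.2.

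The promoters of Gbp2 and Irf1 are shown because they hold the 2 motifs through which the pathway is known to act, with the motif in capitals (RefSeq, GRCm38.p6; Gbp2 at chr3:142620413-142620712, Irf1 at chr11:53769764-53770063, both on the plus strand). The interferon-stimulated response core, GAAA followed by any 2 bases and a second GAAA, was searched on both strands. It begins 59 bases before the start of Gbp2, as its reverse complement. TTCNNNGAA, the gamma-activated site core, reads the same on both strands and begins 90 bases before the start of Irf1 in 1 of its 2 windows.
Gbp2: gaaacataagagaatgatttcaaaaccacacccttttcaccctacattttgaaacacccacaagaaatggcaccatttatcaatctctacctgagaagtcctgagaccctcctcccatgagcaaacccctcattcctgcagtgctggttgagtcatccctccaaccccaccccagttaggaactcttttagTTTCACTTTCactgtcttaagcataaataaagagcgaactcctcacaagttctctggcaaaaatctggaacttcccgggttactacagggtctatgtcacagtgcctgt
Irf1: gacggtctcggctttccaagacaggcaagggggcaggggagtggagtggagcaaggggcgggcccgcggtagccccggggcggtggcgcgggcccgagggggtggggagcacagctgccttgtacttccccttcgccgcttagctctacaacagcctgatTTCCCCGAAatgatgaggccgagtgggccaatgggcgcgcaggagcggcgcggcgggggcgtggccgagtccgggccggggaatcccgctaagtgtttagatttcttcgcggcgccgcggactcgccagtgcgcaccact
The response core was in 3.44% of all 32851 windows of this length and in 9 of the 23 tested IFNG response genes that had a window. TTCNNNGAA was in 8.30% of all windows and in 11 of the 23. Of the 11 lower genes with a window, 6 held the response core and 7 the gamma-activated site core, which describes these letters and not the binding of a factor.

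Class I antigen processing genes were lower where they were called. Of 19 tested members 12 were lower and 0 higher, with a median of -0.23, and the count of lower genes was 7 without late replicate 1 and 6 without 1st relapse replicate 3. Peptide loading led the list: Tapbp, which bridges class I chains to the transporter, had 2444, 2404 and 2785 counts at 1st relapse and 1023, 1447 and 1534 late (-0.74 ± 0.11, limma adjusted p = 1.2e-04). The transporter subunit Tap1 had 277, 162 and 392 against 30.5, 58.4 and 71.3, 5.19-fold lower (limma adjusted p = 0.00124), and Tap2 had 173, 117 and 300.4 against 34.6, 88.9 and 67.9 (limma adjusted p = 0.00442). In all 3 genes each late library lay below each 1st relapse library. The immunoproteasome subunit Psmb8 fell from 169, 148 and 249 to 38.3, 57.8 and 42.8 (limma adjusted p = 0.00161), and the trimming peptidase Erap1 (-0.39) and the proteasome activator Psme2 (-0.24) fell too.

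The class I chains had smaller differences than Tapbp and Tap1. H2-D1 was lower (-0.40 ± 0.14, limma adjusted p = 0.0264), but its libraries overlapped, at 4133, 2912 and 4841 against 2506, 2908 and 3024. That call did not hold in the fit of the 2 groups alone (limma adjusted p = 0.059) or without late replicate 1 (0.099), 1st relapse replicate 1 (0.0793) or 1st relapse replicate 3 (0.136, with a difference of -0.26). H2-K1 (3275, 2414 and 4294 against 3017, 3371 and 3626, difference 0.03) and B2m (3939, 3803 and 4758 against 3042, 3729 and 3933, difference -0.20) were not called. H2 genes have near-identical relatives, so their counts are uncertain. In class II, the invariant chain Cd74 fell from 493, 287 and 751 to 125, 151 and 179 (limma adjusted p = 0.00454) and H2-DMb1 from 206, 180.5 and 299 to 55.6, 96.3 and 97.0 (limma adjusted p = 6.8e-04), and Ifi30 was not called.

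**Figure D3:**
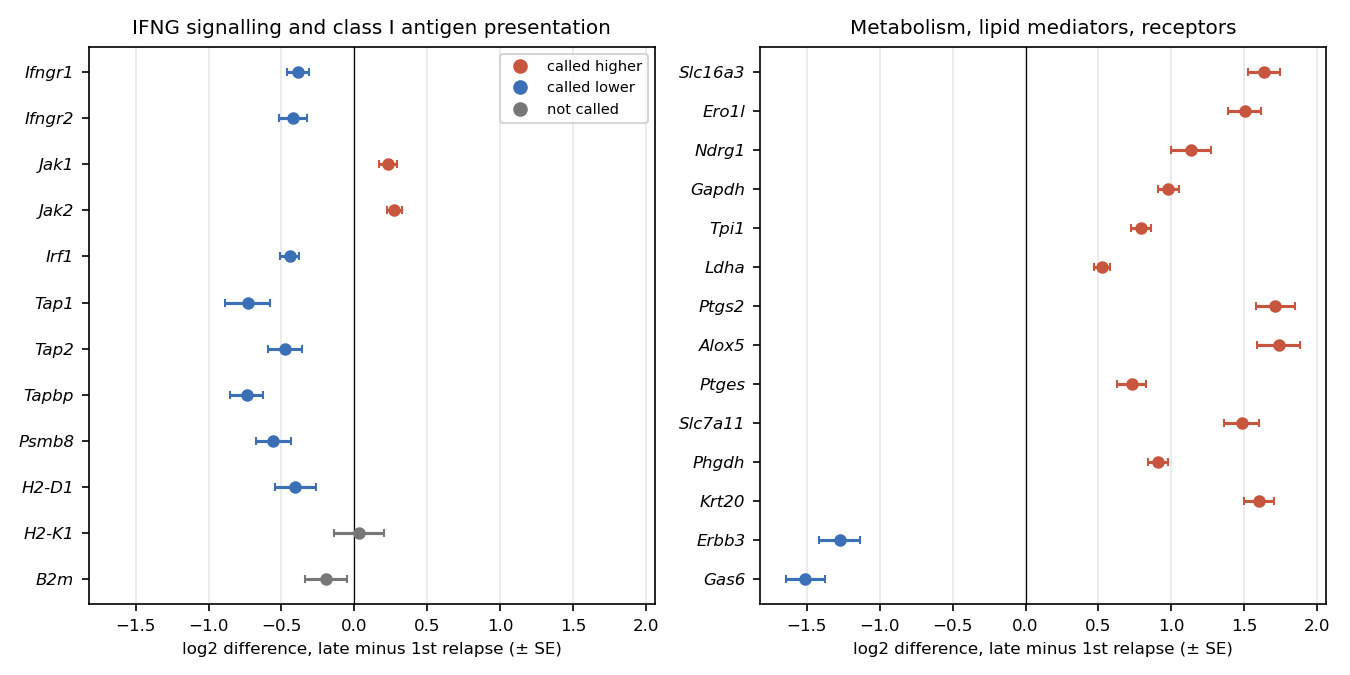
Log2 difference between late and 1st relapse (x axis, limma estimate ± SE, 3 libraries per group) of IFNG and class I genes (left) and of metabolic, lipid mediator and receptor genes (right). Tap1 and Tapbp lie near -0.73, H2-K1 at 0.03 and B2m at -0.20, and Slc16a3, Ptgs2 and Alox5 above 1.5.

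Other immune genes were mixed. In the type I antiviral list 3 of 17 tested members were higher and 6 lower: Isg20 (0.64), Oasl1 (0.51) and Ifit2 (0.43) rose, and Ifitm3 (-0.57), Ifitm1 (-0.38) and Irf7 (-0.27) were among those that fell. Uba7 (-0.38) lost its call without late replicate 1 (limma adjusted p = 0.095), late replicate 3 (0.053) or 1st relapse replicate 1 (0.0564). Of the DNA and RNA sensors, Aim2 rose by 0.59 and Tlr3 fell by 0.50, and Ifih1 (-0.27) lost its call without any of 4 libraries (limma adjusted p 0.0517 to 0.0671). The chemokine Ccl2 fell from 180.4, 140.3 and 128 to 19.98, 24.1 and 47.9 counts (limma adjusted p = 8.0e-05), Tnf from 207, 233 and 217 to 79.1, 96.3 and 69.9 and Il18 from 162, 187 and 223 to 55.9, 76.4 and 74.2, while Lif (0.42) and the macrophage growth factor Il34 (0.42) rose. Ccl2 and Tnf reached the level for testing only in 1st relapse tumours, so the filter set their direction. Among inhibitory ligands Ceacam1 fell from 1121, 1062 and 1357 to 291, 530.1 and 508 (limma adjusted p = 1.2e-05) and Lgals3 rose by 0.49. Cd274, which encodes PD-L1, lay below the level for testing at 46.8, 57.9 and 44.3 counts at 1st relapse and 86.3, 81.9 and 78.5 late. The late libraries were the higher ones there.

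Most tested epithelial identity genes were lower in late relapse. Among gastric and mucosal secretory genes 18 of 22 tested members were lower and 3 higher, with a median of -0.60, and among junction and brush border genes 24 of 34 were lower and 5 higher, with a median of -0.49. Epcam, a surface adhesion protein of epithelium, had 6826, 6779 and 8497 counts at 1st relapse and 1981, 2908 and 2907 late (-1.34 ± 0.17, limma adjusted p = 2.6e-05), which is still above its parental mean of 758. The mucosal immunoglobulin transporter Pigr had 3554, 2914 and 4579 against 961, 938 and 1164 with 45.3 in parental tumours, the trefoil peptide Tff2 4329, 3914 and 4970.4 against 799, 1520.3 and 2210.0 with 291, and the galectin Lgals4 8073, 8290.2 and 9764 against 2030.5, 3379 and 3370.5 with 782. In each late library all 4 genes were higher than the parental mean. That each late library was lower than at 1st relapse was required by the rule that chose them.

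Cdh1, the adherens junction cadherin, fell by 0.48, the splicing regulator Esrp1 from 597, 579.7 and 812 to 171, 242 and 213 and the membrane protease St14 from 789, 758 and 1162 to 185, 228 and 242 (limma adjusted p = 1.3e-05). Occludin Ocln (-0.73) and the claudins Cldn3 (-0.76), Cldn7 (-0.75) and Cldn4 (-0.55) were lower too. Against that direction, Lgals2 rose from 1061, 715 and 856 to 4350.0, 3106 and 3914 (limma adjusted p = 2.4e-07), Anxa10 by 0.84 and Muc5ac by 0.46, and in the junction list Cdhr2 (2.32), F11r (0.75) and Tjp1 (0.39). Of lineage factors, 16 of 25 were lower and 5 higher. The epithelial factors Ehf (3095, 2979 and 3282 to 835, 1215 and 1272, limma adjusted p = 6.6e-06), Elf3 (-0.98) and Tfcp2l1 (-1.02) fell, along with Sox9 (-0.53). Sox2 rose from 939.6, 963 and 889 to 1774, 1800.4 and 1841 (limma adjusted p = 1.6e-06), and Klf4 (0.39), Foxa2 (0.37) and Gata6 (0.28) were higher as well. Hnf4a was not called (-0.07).

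Keratins did not move as a block. Krt20, of differentiated gut epithelium, rose from 3640.4, 2847 and 3703 to 12078, 11315 and 10675 (1.60 ± 0.10, limma adjusted p = 6.5e-08) and Krt23 from 1263, 919.9 and 1169 to 2856, 2535 and 2879.6, while Krt7 fell from 8298, 8982 and 10961 to 3232, 5271 and 5030.0 (limma adjusted p = 1.7e-04). Krt8 (0.09) and Krt19 (-0.19) were not called, and the rise of Krt18 (0.30) was not called after quantile normalisation (limma adjusted p = 0.246). The summed tumour epithelium markers were 5831 to 6843 CPM at 1st relapse and 5705 to 6030 CPM late, led by Krt8. Alveolar and airway genes were lower in 4 of 8 tested and higher in 0, with a median of -0.26. The mucin Muc1 fell from 3761, 4136 and 3896 to 1143, 1773 and 2030.0 (limma adjusted p = 2.9e-04) and the lipid transporter Abca3 from 2613, 2522 and 2973 to 1727, 1931 and 1862 (limma adjusted p = 7.9e-05), and the water channel Aqp5 was not called (-0.22). The lung factor Nkx2-1 lay below the level for testing, at 0 to 10.3 counts in the 6 libraries. The mesenchymal list split, 9 of 31 higher and 8 lower. N-cadherin Cdh2 rose from 1126, 816 and 907 to 2465, 2395 and 2507 (limma adjusted p = 6.0e-07), and osteopontin Spp1 (0.83), tenascin Tnc (0.78) and vimentin Vim (0.35) were higher. Lox, Tagln, Acta2 and Twist1 were lower, and the count of lower genes was 5 without late replicate 1 or without 1st relapse replicate 2.

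Fibroblast and matrix genes were lower in late relapse, with 1 late library apart. The summed level of 14 fixed fibroblast markers was 3268, 4526 and 3579 CPM at 1st relapse and 701.6, 792.4 and 2869 CPM late, so that late replicate 3 lay close to the 1st relapse libraries. Parental libraries held 832.2 to 1286 CPM and 2nd relapse libraries 92.3 to 128.9 CPM. In bulk samples fewer cells of a type and less RNA per cell cannot be told apart. Of the 13 tested markers 11 were lower and 0 higher (6 lower without late replicate 1, 7 without replicate 2, 13 without replicate 3). Col1a1, a chain of the main fibrillar collagen, had 7699.9, 11185 and 8068 counts against 1593, 1636 and 6176 (-1.58 ± 0.37, limma adjusted p = 0.00288), and without late replicate 3 its difference was -2.13. Col3a1 was lower (-1.67), but its libraries overlapped, at 35268, 44135 and 38129 against 5779.9, 7928 and 35507, and its call was lost without late replicate 1 (limma adjusted p = 0.0852) or 2 (0.0655). Col1a2 (-1.42) lost its call without late replicate 1 (limma adjusted p = 0.0533). Periostin, Postn, had 4331, 5888 and 4520.1 against 952, 1064 and 3648, and the collagen cross-linking enzyme Lox 1338, 1322 and 1095 against 102, 144 and 1071, again with late replicate 3 high.

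**Figure D4:**
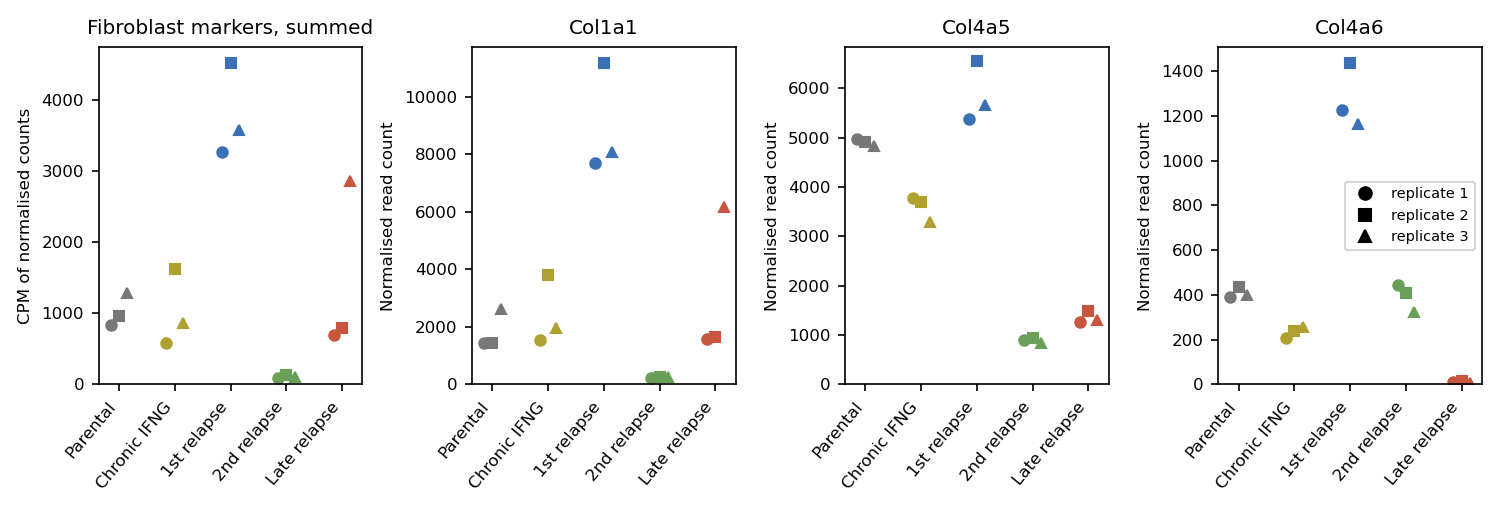
Summed fibroblast markers (CPM) and normalised counts of Col1a1, Col4a5 and Col4a6 in all 15 KP libraries, 3 per group on the x axis, marker shape giving the replicate. Late replicate 3 stands at 2869 CPM of fibroblast markers and 6176 Col1a1 counts, far above the other late libraries, while for Col4a5 (1263 to 1498) and Col4a6 (4.42 to 17.1) the 3 late libraries lie together.

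Over the collagen, basement membrane and proteoglycan list 28 of 38 tested members were lower and 2 higher, with a median of -0.48 (30 lower without late replicate 3). Fibroblast collagens and proteoglycans such as Col5a2 (-1.21), Col12a1 (-1.24), decorin Dcn (-1.19) and versican Vcan (-1.17) moved with the fibroblast markers, whose part in the result was not tested. Laminin Lamb1 (0.59) and nidogen Nid1 (0.48) rose. Unlike Col1a1, Col4a5 and Col4a6 were as low in late replicate 3 as in the other late libraries, and their differences without it were -1.75 and -2.33. Complement genes were lower in 7 of 11 tested and higher in 0, with a median of -0.62. C3, the central component, had 1642, 2001 and 2604 against 224, 249 and 1082 (limma adjusted p = 0.00239), C4b 1307, 1221 and 1992 against 284, 481 and 1098, and the C1 protease C1s1 344, 405 and 638 against 48.8, 78.8 and 247. Late replicate 3 was the highest late library for all 3, as for the fibroblast markers, whose part in this was not tested. Clusterin Clu (-0.04) and Cfb (-0.13) were not called.

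Most tested glycolysis and hypoxia genes were higher in late relapse. Of 37 tested members 22 were higher (59.5%, against 24.6% of all genes) and 5 lower, with a median of 0.37. At the export end, Slc16a3, the lactate transporter MCT4, had 2698, 1636 and 2379 counts at 1st relapse and 8253, 7465 and 8128 late (1.63 ± 0.11, limma adjusted p = 8.7e-08), and its parental mean was 299. The glucose transporter Slc2a1 went from 3061, 2785 and 3513 to 5362, 5381 and 6632 (limma adjusted p = 1.2e-05). Along the pathway, Pfkp (0.60), Aldoa (0.61), Tpi1 (0.79), Gapdh (0.98), Pgam1 (0.39), Eno1 (0.49), Pkm (0.24) and Ldha (0.52) were higher, and Pgk1 was lower (-0.24). Gapdh counts were 33148, 29333 and 32151 against 60878, 61901 and 65309.9, with the 3 late libraries close together and well above. Unlike that of Slc16a3, the parental means of Gapdh (53349) and Tpi1 (14157) were above those of 1st relapse (31544 and 11254). They were below the late means (62696 and 19824). At 2nd relapse the means were 8176 for Slc16a3, 104055 for Gapdh and 29079 for Tpi1, each above the late mean.

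Among hypoxia genes outside glycolysis, the oxidoreductase Ero1l rose from 4114, 3404 and 4521 to 12059, 10404 and 14869 (limma adjusted p = 2.6e-07), Ndrg1 from 2695, 2065 and 2761 to 5312, 5348 and 7992 (limma adjusted p = 2.0e-05) and the mitophagy receptor Bnip3 by 0.79. The parental mean was 5539 for Ero1l and 4950 for Ndrg1. Both lay between the 1st relapse means (4013 and 2507) and the late means (12444 and 6217). The 2nd relapse means, 13044 for Ero1l and 14617 for Ndrg1, were above the late ones. Vegfa (0.12) and Egln3 (0.06) were not called, and the carbonic anhydrase Car9 (-0.34), Pfkfb4 (-0.59), Ankrd37 (-0.23) and Ddit4 (-0.23) fell, so well-known hypoxia targets went both ways. The count of lower genes was 2 without late replicate 1 or without 1st relapse replicate 3, and 3 without late replicate 2. The promoters of Slc16a3, Ero1l and Slc2a1 are shown because they hold ACGTG, the core of the hypoxia response element, in capitals (RefSeq, GRCm38.p6; chr11:120948817-120949116 plus strand, chr14:45318523-45318822 minus strand under the symbol Ero1a, chr4:119108495-119108794 plus strand). The letters were searched on both strands and begin 27 and 14 bases before the start of Slc16a3, 63 before that of Ero1l (as CACGT) and 36 before that of Slc2a1.
Slc16a3: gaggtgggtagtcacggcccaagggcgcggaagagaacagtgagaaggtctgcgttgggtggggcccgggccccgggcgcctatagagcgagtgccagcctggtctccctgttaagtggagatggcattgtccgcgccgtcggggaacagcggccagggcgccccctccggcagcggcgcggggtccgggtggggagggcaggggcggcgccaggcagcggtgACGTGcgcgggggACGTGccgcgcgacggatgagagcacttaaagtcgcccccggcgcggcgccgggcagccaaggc
Ero1l: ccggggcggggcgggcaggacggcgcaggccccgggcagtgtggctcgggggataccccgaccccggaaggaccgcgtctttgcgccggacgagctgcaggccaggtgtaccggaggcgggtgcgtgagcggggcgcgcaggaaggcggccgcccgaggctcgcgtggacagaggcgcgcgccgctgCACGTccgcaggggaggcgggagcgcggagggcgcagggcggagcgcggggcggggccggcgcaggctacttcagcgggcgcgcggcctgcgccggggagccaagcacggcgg
Slc2a1: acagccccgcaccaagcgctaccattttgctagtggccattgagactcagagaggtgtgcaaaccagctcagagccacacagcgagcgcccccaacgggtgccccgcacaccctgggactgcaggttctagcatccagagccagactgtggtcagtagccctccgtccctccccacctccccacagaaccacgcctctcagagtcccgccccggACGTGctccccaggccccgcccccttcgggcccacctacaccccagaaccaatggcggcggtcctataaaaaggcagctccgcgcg
ACGTG was in 19.6% of all windows, and 29.98% of all tested genes with a window had it in at least 1. It was in 14 of the 20 higher list members with a window and in 4 of the 5 lower ones, so its presence did not separate the 2 directions.

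Most tested sterol and lipid genes were also higher. In the synthesis list 17 of 30 tested members were higher and 2 lower, with a median of 0.19. The desaturase Scd1 (1953, 1356 and 1827 to 3378, 2800.1 and 3369, limma adjusted p = 6.1e-05), Cyp51 (0.69), Msmo1 (0.66), Insig1 (0.42) and the regulators Srebf1 (0.37) and Srebf2 (0.35) rose. Sqle, the squalene epoxidase that lies in the chromosome 15 stretch, fell from 6822, 6148 and 6372 to 2659, 2477 and 2648, and Nsdhl (-0.19) was the other lower member. Lipoprotein and lipid droplet genes were higher in 7 of 12 and lower in 1 (Dgat2, -0.21, not called without late replicate 1 or 1st relapse replicate 3), led by Apob (10099.8, 9793 and 7954 to 13399, 13512 and 17355, limma adjusted p = 0.00389), Plin2 (0.58) and Apoe (0.47). The rise of Apob was not called on back-calculated counts (limma adjusted p = 0.0518).

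Amino acid and redox genes split. The cystine transporter Slc7a11 rose from 362, 225 and 269.8 to 2081, 1343 and 1317 (1.48 ± 0.12, limma adjusted p = 6.1e-07), the serine synthesis enzymes Phgdh (6554, 5739 and 6263 to 13212, 11162 and 11894) and Psat1 (0.54) rose, and so did the stress factor Atf4 (0.52), Ddit3 (0.38) and Trib3 (0.36). In the unfolded protein and integrated stress list as a whole 16 of 34 were higher and 8 lower, and the lower ones were mostly endoplasmic reticulum chaperones and foldases, Hspa5 (-0.23), Hyou1 (-0.27) and Pdia6 (-0.17) among them. That count of lower genes was 4 without late replicate 1 or without 1st relapse replicate 3, and 5 without late replicate 2. NRF2 and glutathione genes were lower in 19 of 35 and higher in 7. Nfe2l2, which encodes NRF2, fell by 0.56, the glutathione synthesis subunit Gclc from 2712, 2503 and 2997 to 1088, 1554 and 1436 (limma adjusted p = 5.2e-05) and the transferase Gsta4 from 4409, 4079.9 and 4606 to 1255, 2355 and 2183. Against that direction, the reductase Akr1c13 rose from 347, 329 and 331 to 2250.2, 1856 and 2050.2, and Gclm (0.30), Hmox1 (0.36) and Tkt (0.57) rose as well.

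In the prostaglandin and retinoid list 5 of 19 tested members were higher (26.3%, against 24.6% of all genes) and 6 lower (31.6%, against 23.5%). The lower ones included retinoid genes and the higher ones Ptgs2, Ptges and Alox5. Pla2g4a, which frees arachidonic acid, went from 1261, 1366 and 1386 to 2459, 2509 and 2579 (limma adjusted p = 1.2e-06). Ptgs2, the cyclooxygenase COX-2, had 1950.1, 1898 and 1988 counts against 8295, 8431 and 6236 (1.71 ± 0.13, limma adjusted p = 3.8e-07), with a parental mean of 5716. Ptges, the prostaglandin E synthase, went from 4592, 3283 and 4509 to 6995, 6733 and 7674 (limma adjusted p = 5.3e-05). Alox5, which opens the leukotriene branch, had 194, 67.9 and 76.8 against 1673, 910.2 and 1153, 11.05-fold, with 3.35 in parental tumours. The retinol carrier Rbp4 rose from 424, 263 and 367 to 1755, 1405 and 1634, while the retinoid genes Stra6 (-0.68), Aldh1a3 (-0.67), Dhrs3 (-0.51) and Rarg (-0.43) fell.

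Growth factor ligands and receptors split. Of 36 tested members 11 were higher and 14 lower. The EGFR ligands Areg (945, 905 and 1506 to 3626, 3174 and 2369, limma adjusted p = 1.2e-04), Btc (0.69), Ereg (0.58), Tgfa (0.53) and Hbegf (0.46) and the ERBB3 ligand Nrg1 (0.67) rose, as did Kitl (0.77) and Epha2 (0.71). The receptor Erbb3 fell from 3320.4, 2982 and 3972 to 885, 1197 and 1281 (limma adjusted p = 9.0e-06), Erbb2 was lower (-0.42), and Egfr was not called (-0.18). Gas6, a ligand of Axl, fell from 1423, 1474 and 1721 to 132, 289 and 425, and Axl rose by 0.20. Fgfr2 was not called (-0.88), at 99.5, 113 and 663 against 5.16, 15.9 and 46.3, with 1st relapse replicate 3 far above the others. It was lower in the fit of the 2 groups alone (limma adjusted p = 0.0396) and on back-calculated counts (0.0226). Downstream, MAPK output genes were higher in 12 of 34 and lower in 4, led by Dusp10 (587, 499 and 580.3 to 1263, 1152 and 1538), Dusp5 (0.68), Plaur (0.62) and Spry1 (0.59), while the ETS factors Etv1 (-0.65) and Etv5 (-0.37) were lower. NF-kB targets were higher in 7 of 21 and lower in 5, and Tnfaip2 stood out at 1568, 1277 and 1489 to 4939, 3874 and 4591 counts (limma adjusted p = 1.9e-08).

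In the TGF-beta and BMP list 10 of 30 were higher and 9 lower. Bmp7 rose from 1727, 845 and 1309.7 to 4068, 3979.6 and 4587 (1.42 ± 0.14, limma adjusted p = 2.3e-06), the BMP antagonist Grem1 from 469, 463 and 546 to 1418, 1121 and 1122 and the activin subunit Inhba by 0.74. The other activin subunit gene, Inhbb, fell from 126, 215 and 247 to 5.77, 8.23 and 25.1, and Fstl1 from 2457, 2802 and 2469 to 547, 593 and 2036 with late replicate 3 high. Wnt genes were lower in 10 of 21 and higher in 4. Wnt5a, a non-canonical ligand, rose from 887, 1453 and 1093 to 2580.3, 2211 and 2814 (limma adjusted p = 3.5e-05), and the stem cell receptors Lgr4 (1007, 957 and 1151 to 503, 580.5 and 586) and Lgr5 (229.5, 169.7 and 299 to 88.2, 74.3 and 82.5) fell. Sfrp1, a secreted Wnt antagonist, was lower (-0.91) with overlapping libraries, at 182, 880.3 and 398 against 31.4, 35.3 and 247, and its difference was -0.61 without 1st relapse replicate 2. Integrins were higher in 5 of 13 and lower in 2, led by the collagen receptor chain Itga2 (4716, 3709 and 4000.1 to 9834, 7728 and 9203, limma adjusted p = 1.5e-05).

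Most proliferation genes were not called. Of 40 mitotic genes 10 were higher and 3 lower with a median of 0.08, the higher count was 5 without late replicate 1 and 6 without 1st relapse replicate 3, and the lower count was 1 without late replicate 3 or 1st relapse replicate 1. Mki67 (-0.07) and Top2a (0.10) were not called, and Aurka (0.36) and Birc5 (0.31) rose. Replication genes were higher in 7 of 36 and lower in 5, with Mcm3 (-0.31) and Mcm6 (-0.31) lower and Rrm2 (0.30) higher, and the count of higher genes was 4 without late replicate 1 or 1st relapse replicate 3 and 11 without late replicate 3. Respiratory chain genes were higher in 11 of 46 and lower in 11, all within 0.35 of 0. Of p53 targets 7 of 25 were higher and 8 lower: Pmaip1 rose by 0.75, Perp fell by 0.82 and Phlda3 by 0.66, and Cdkn1a and Mdm2 differed by 0.27 (called) and 0.13 (not called). Genes of tissue dissociation and heat stress were mostly not called, 19 of 25, and Hspb1 rose by 0.65.

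**Figure D5:**
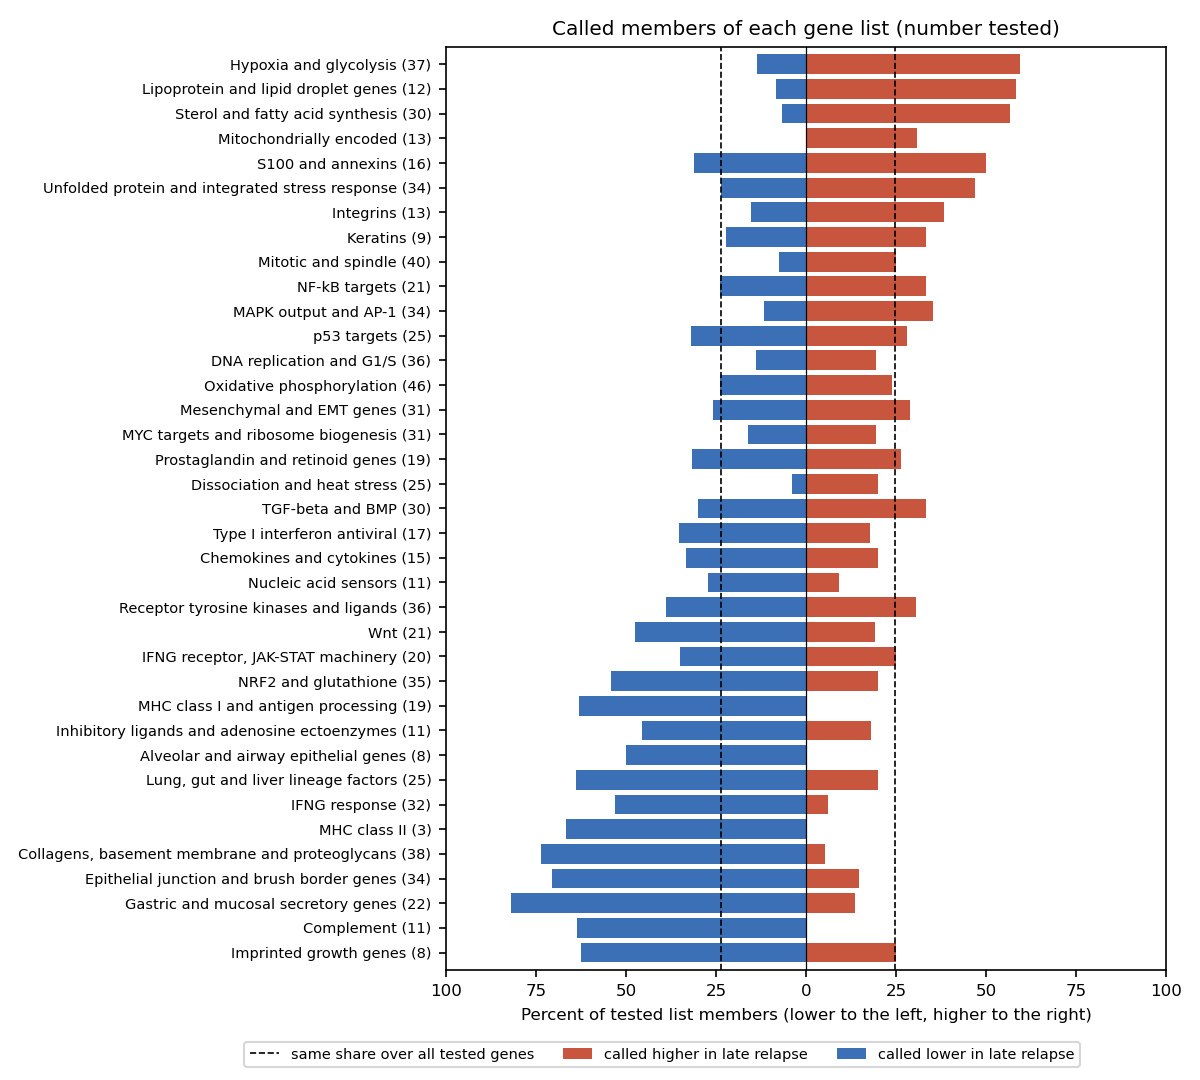
Share of tested members called higher (right) and lower (left) in late relapse for the 37 fixed gene lists with a tested member, ordered by median difference; the number tested is in parentheses. Dashed lines are the shares over all tested genes, 24.6% higher and 23.5% lower; hypoxia and glycolysis reach 59.5% higher, and gastric and mucosal genes 81.8% lower.

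Imprinted growth genes were lower in 5 of 8 and higher in 2. Peg10, a paternally expressed retrotransposon-derived gene, fell from 532, 604 and 475 to 36.3, 27.7 and 30.8, 17.0-fold (-1.36 ± 0.06, limma adjusted p = 8.2e-10). The non-coding RNA Rian fell from 899.5, 839 and 633 to 102, 93.6 and 341, Meg3 from 405, 510.2 and 365 to 64.4, 31.8 and 207 and the adaptor gene Grb10 from 244, 289.9 and 352 to 24.9, 24.6 and 132. Late replicate 3 was well above the other late libraries for these 3 genes, as it was for the summed fibroblast markers (701.6, 792.4 and 2869 CPM), whose part in this was not tested. Meg3 and Grb10 reached the level for testing only in 1st relapse tumours, so the filter set their direction. Igf2r fell from 6622, 6327 and 6393 to 3153, 3256 and 3785. H19 rose by 0.72 and Gnas by 0.46.

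By chromosome, X stood apart. Of its 329 tested genes 232 were lower (70.5%) and 14 higher, with a median of -0.24, and Xist, the RNA that silences 1 X in female cells, had 23887, 19249 and 20270.1 counts at 1st relapse and 12885, 10540.2 and 14199 late (limma adjusted p = 1.0e-04). Each late library had less Xist than each 1st relapse library, and the parental mean was 28515. Chromosome 17 had 284 of 560 genes lower (50.7%) and a median of -0.15, and chromosome 5 had 366 of 725 higher (50.5%) and a median of 0.16. In 204 windows of 10 Mb with at least 20 tested genes the medians ran from -0.32 to 0.27, so no window moved by as much as 0.5 on the log2 scale.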

How the data were processed

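RNA was measured by stranded total RNA sequencing of live CD45-negative tumour cells. The authors deposited variance-stabilised log2 values per gene, made with cutadapt 2.9, Salmon 1.8.0 and DESeq2 1.34.0 on GRCm38/mm10 per the submitters' processing notes; the settings of the transform are not given in the sources used here. Its lowest value, 8.17, stands for a count of 0, and normalised counts were calculated back from it. Depth was estimated from the value of 1 read, with 75.2 to 80.9% of low values whole within 0.15, too few to run a count test.

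Of 36040 genes, 85 had no symbol, and 11193 were tested with limma 3.58.1 (R 4.3.3, intensity trend, Benjamini-Hochberg adjustment) in 1 fit of all 15 KP libraries, where all groups share 1 estimate of the spread. The members and gene lists were chosen with earlier results of these data known. Genes were named by rule: the 15 highest and 15 lowest differences among called, non-overlapping genes with a proper symbol and a mean of at least 3 log2 units above the lowest value, up to 5 members per list with the largest differences, and 16 preset genes. Other genes named beside them, the chromosome 15 stretch and the Col4a5 and Col4a6 pair were chosen after their values were seen. Simulated data held 200 changed genes in all, divided among sizes of 0.25, 0.50 and 1.00 log2. At these sizes 56.7, 94.0 and 97.0% were recovered, and 9 unchanged genes were called. Alternatives varied the filter, normalisation, variance model, samples, weights, scale and replicate block, and left out each library. Python 3.11.15, pandas 2.3.3, numpy 2.4.6 and matplotlib 3.10.9 were used. Promoters came from RefSeq (GRCm38.p6). Some genes covered by the naming rule are not reported here.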

Additional observations from a re-analysis of the deposited data

How the results depend on the processing

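The count of genes called was 4604 to 4928 with 1 library left out, 2395 to 2528 of them higher and 2127 to 2446 lower, with 149 to 218 at 1 log2 unit or more. With a stricter filter of 3 log2 units, which tested 3347 genes, 1933 were called, 1247 higher and 686 lower, and 110 reached 1 log2 unit. On back-calculated counts with a pseudocount of 10, 821 genes reached 1 log2 unit, on a scale that compresses low counts less. No filter gave 6100 calls, quantile normalisation 5487, median centring 5444, no intensity trend 5372, array weights 5157 and the 2 groups alone 4673, and 0 shared calls had the opposite sign in any alternative. With the replicate number as a block 5272 genes were called, and 183 reached 1 log2 unit. The numbers were not taken as pairing, since same-numbered libraries correlated at 0.10, 0.04 and 0.16, although every library but 1st relapse replicate 2 correlated best with its own number. Of the 202 named genes, 192 to 197 kept their direction and side of the threshold with 1 library left out and 195 after quantile normalisation, and 83 were not tested under the stricter filter. H2-K1, at 0.03, was -0.031 after quantile normalisation, -0.02 without late replicate 3, and ran from -0.15 to 0.21 with 1 library left out. Trp53, at -0.02, was 0.034 after quantile normalisation. The mitochondrial gene mt-Co2, at 0.38, ran from -0.26 (without 1st relapse replicate 3) to 0.81. These 3 genes were not called in any of these fits, and the cause was not tested.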

Other observations

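Genes of the histone clusters (symbols starting with Hist), looked at after their values were seen, were lower in 48 and higher in 2 of 59 tested members, with a median of -0.36 against -0.0018 over all tested genes. In the 10 Mb window of chromosome 13 with the lowest median, 45 of 49 histone genes were lower, with a median of -0.43, and 11 of the other 22 genes were lower, with a median of -0.17. Histone genes have close copies, so their counts are uncertain.

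A set of 12 predicted genes of satellite type, likewise chosen after their values were seen, took 0.0928 to 0.614% of all counts in the 3 1st relapse libraries and 1.86 to 3.06% in the 3 late ones. It took 0.292 to 1.32% in parental and 1.61 to 2.24% in 2nd relapse libraries. Late and 1st relapse libraries did not overlap, and the part of such transcripts in the other results was not tested.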
